A study of Mus musculus with 4 samples.

Results

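The SERTA-domain genes Sertad1, Sertad2, Sertad3 and Sertad4 and 6 cyclin-dependent kinase (CDK) inhibitor genes, Cdkn1a, Cdkn1b, Cdkn1c, Cdkn2a, Cdkn2c and Cdkn2d, were followed in mouse muscle stem cells (MuSCs) given BMP6. They were found by name and made up 10 of the 55267 entries of the expression table. The set was selected on results of the same comparison, in which Sertad1 rose, so the BMP6 against control values of these 10 genes are given as a description and carry no test.

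SERTAD proteins are small nuclear proteins, and the best known of them, SERTAD1, binds CDK4 and serves as a coactivator of the E2F transcription factors that switch on DNA replication genes. CDK inhibitors work on the same axis from the opposite side. The INK4 proteins bind CDK4 and CDK6, and the Cip/Kip proteins bind cyclin-CDK complexes more broadly. In the myogenic lineage, p21 (Cdkn1a) and p57 (Cdkn1c) are known to accompany withdrawal from the cell cycle as myoblasts differentiate.

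The cells came from skeletal muscle of female 9-week-old C57BL/6N(Tg(Pax7-EGFP)Tajb) mice, were sorted for the green fluorescent Pax7 reporter after 1 day of culture and were grown further at 3% oxygen. In both groups, cells then spent 6 h without serum in 200 ng/mL BMPR-1A-Fc, a soluble receptor that binds BMPs. The BMP6 group (2 libraries) received 100 ng/mL BMP6 for 1 h, and the control group (2 libraries) received the vehicle, 4 mM HCl with 0.1% BSA, for the same time. The batch label gives biological replicate 1 or 2, and each number occurs in both groups, so that the libraries form 2 pairs. Whether replicates came from separate animals or from pools is not given in the sources used here, and p-values measure only the spread between these libraries.

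Levels are in TPM (transcripts per 1000000), which are scaled for transcript length and can therefore be compared between genes. Reads rebuilt from coverage numbered between 108138579 and 111966564 per library. Id1, a direct BMP target, checked the treatment and had 584 and 513 TPM after BMP6 against 90.5 and 129 TPM in controls (log2 difference 2.33, SE 0.17, limma adjusted p = 0.0164). The myogenic genes were present throughout, with Pax7 between 8.29 and 11.7 TPM, Myod1 between 536 and 631 TPM and Myog, a marker of differentiating myoblasts, between 4399.5 and 5472 TPM. Of 7 myogenic markers, 2 were higher and 5 lower after BMP6, and 0 passed an adjusted p of 0.1 in limma. With the replicate number as a block, 1 passed as lower, as did 0.319% of named tested entries. This was Des, with 952 and 807 TPM after BMP6 and 1120.2 and 955 TPM in controls (limma adjusted p = 0.0312 with the block). Of the 4 endothelial and the 4 Schwann cell markers, all stayed under 1 TPM in every library. Among the immune markers only Cd68 reached 1 TPM in any library, among the pericyte or smooth muscle markers only Pdgfrb and Cspg4 did, and among the fibroblast markers Col3a1, Col1a1 and Dcn did. RNA was measured in bulk, so a change in cell composition and a change in RNA per cell cannot be told apart.

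Cdkn1a and Cdkn1c stood far above the other 8 genes, and Cdkn2a was barely detected. Over the 4 libraries, Cdkn1a averaged 1538 TPM (range 1357 to 1741), which placed it at rank 58 by level among the 10645 named entries tested. Cdkn1c followed with 514 TPM (495 to 533) and Cdkn2d with 127 TPM (117 to 138). Each of these levels was clear of the next by the range over libraries.

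Below them came Sertad1 with 59.6 TPM (32.2 to 83.8) and Cdkn2c with 45.6 TPM (42.9 to 48.2), whose ranges overlapped. Sertad3 with 28.1 TPM (24.3 to 33.7) lay clear above Sertad2 with 14.4 TPM (12 to 16.0), and the range of Sertad4, with 22.2 TPM (8.34 to 36.3), covered both. Cdkn1b averaged 8.30 TPM (6.58 to 10.4) and Cdkn2a 0.414 TPM (0.243 to 0.725).

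**Figure D1:**
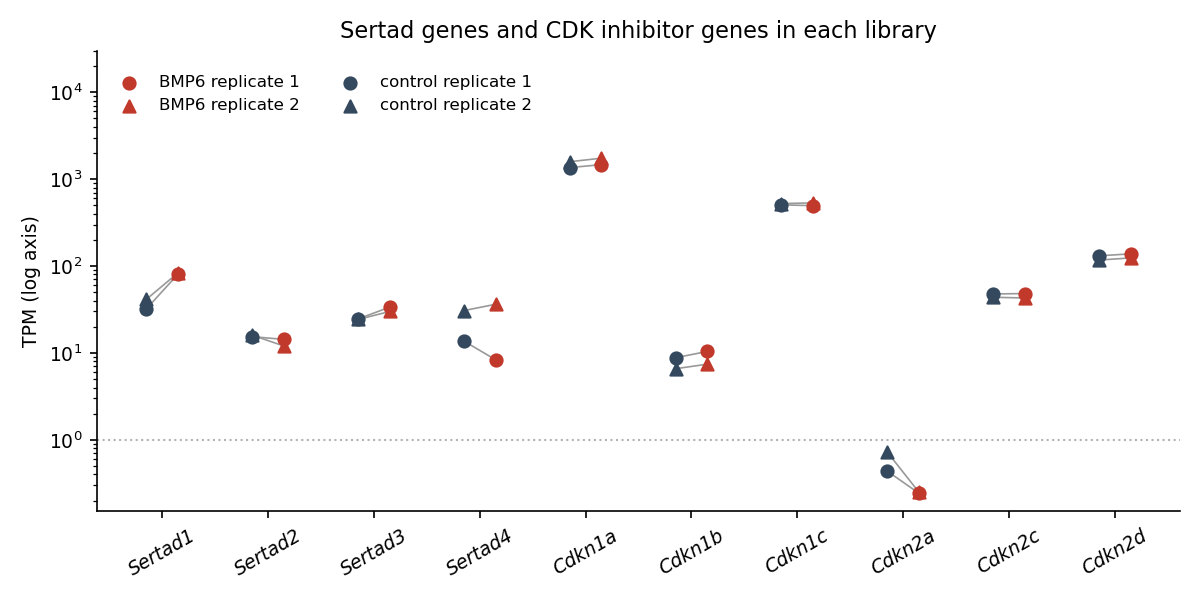
TPM on a log axis for the 10 genes in each of the 4 libraries, with control libraries in dark blue on the left, BMP6 libraries in red on the right, circles for replicate 1, triangles for replicate 2, and lines joining the libraries of a pair. The dotted line marks 1 TPM. Sertad1 rises along both lines from 32.2 and 41.4 to 81.0 and 83.8 TPM, and the lines of Sertad4 run in opposite directions.

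Sertad1 more than doubled after 1 h of BMP6. Its level was 81.0 TPM in BMP6 replicate 1 and 83.8 TPM in BMP6 replicate 2, against 32.2 TPM in control replicate 1 and 41.4 TPM in control replicate 2. Both BMP6 libraries lay above both controls, and the treated libraries were closer to each other than the controls were. The mean was 82.4 ± 1.97 TPM (SD, n = 2) with BMP6 and 36.8 ± 6.48 TPM (SD, n = 2) in controls, a 2.24-fold ratio. On the log2(TPM + 1) scale the difference was 1.15 (SE 0.14), with 1.30 within the replicate 1 pair and 1.00 within the replicate 2 pair. Rebuilt reads numbered 6258 and 6204 with BMP6 and 2534 and 3140 in controls. Ranked by log2 difference, Sertad1 was number 31 among the 10645 named tested entries.

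The Sertad1 entry, merged_LIST.19909, held 1 transcript of 2 exons at chr7:27186335-27189741 (plus strand), and the difference was seen in each exon. Scaled depth, the mean read depth per 1000000 rebuilt reads, was 0.835 and 0.98 with BMP6 and 0.378 and 0.458 in controls over the first exon (169 bases). Over the second exon (1064 bases) it was 5.19 and 5.24 with BMP6 and 2.07 and 2.64 in controls. The gene thus had no second listed transcript between which reads could be divided, no annotated gene overlapped it, and no other transcript of the annotation matched it over 100 bases or more at 95% identity.

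A call required a fold change of at least 2 and an adjusted p under 0.1. Calls were made for 24 higher entries, 0.225% of the named tested entries, and for 0 lower entries in limma, where 36 higher and 1 lower entries passed the same fold at an unadjusted p under 0.05. By limma with the replicate block 1 entry was called lower, and by voom without it 0. Sertad1 was among the 24, which is part of how the set was chosen, and nothing is read from it. Its log2 difference lay between 0.98 and 1.33 under 14 alternative settings. Leaving out control replicate 1, the lower of the controls, brought the difference to 0.98, below the fold threshold.

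**Figure D2:**
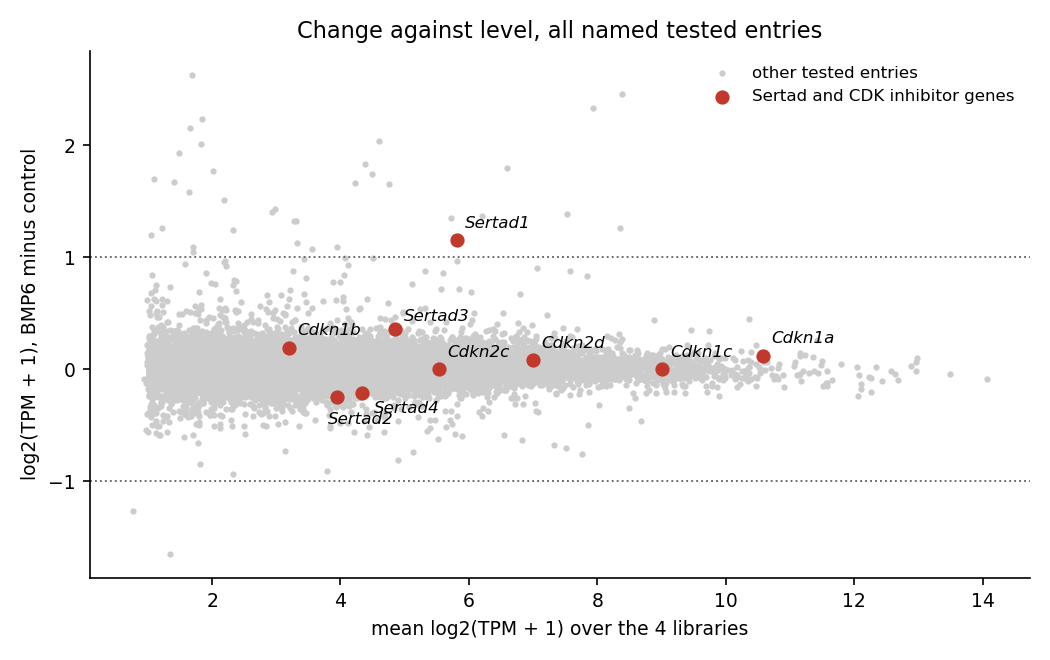
Difference between BMP6 and control on the log2(TPM + 1) scale (vertical axis) against the mean log2(TPM + 1) over the 4 libraries (horizontal axis) for the 10645 named tested entries in grey and the 9 tested Sertad and CDK inhibitor genes in red. Dotted lines mark a 2-fold difference. Sertad1 at 1.15 lies above the upper line, and the other 8 lie between -0.25 and 0.36.

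Sertad3, whose product was named for binding replication protein A, lies 9.5 kb from Sertad1 on the same strand, at chr7:27173193-27176789. It had 33.7 and 30 TPM with BMP6 and 24.6 and 24.3 TPM in controls. The groups did not overlap, and the mean ratio was 1.30 (log2 difference 0.36, SE 0.11, pairs 0.44 and 0.29). Its entry also holds a single transcript, whose last exon had a scaled depth of 2.04 and 1.78 with BMP6 and 1.5 and 1.47 in controls. Unlike Sertad1, it is overlapped by an annotated gene, the noncoding Gm38972, over 2298 bases on the opposite strand. Gm38972 had no entry of its own, and the libraries were unstranded, so reads of the 2 strands cannot be told apart there. Annotated genes also overlap Sertad2, Sertad4, Cdkn1a, Cdkn1b, Cdkn1c, Cdkn2c and Cdkn2d on the opposite strand. The same limit holds for these genes.

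Other expressed entries within 25 kb of Sertad1 and Sertad3 were Blvrb, which encodes a biliverdin reductase, and Pgam1-ps2, a pseudogene entry. Blvrb had 22.1 and 17.8 TPM with BMP6 and 21.3 and 18.5 TPM in controls. Pgam1-ps2 had 684 and 529 TPM with BMP6 and 721 and 573 TPM in controls. In both entries the groups overlapped (limma adjusted p = 1.00 for each).

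The 250 bases upstream of the start of the most abundant transcript are shown for Sertad1, which rose, for its neighbour Sertad3, for Cdkn1a as the most abundant of the 10, and for Cdkn1b, which held the most GC-rich SMAD motifs. They were read from GRCm39, 5′ to 3′ in the direction of transcription. Capitals mark the GC-rich SMAD1/5 motif GGCGCC and the SMAD box CAGAC on either strand (GTCTG on the minus strand).

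Sertad1, chr7:27186085-27186334, plus strand: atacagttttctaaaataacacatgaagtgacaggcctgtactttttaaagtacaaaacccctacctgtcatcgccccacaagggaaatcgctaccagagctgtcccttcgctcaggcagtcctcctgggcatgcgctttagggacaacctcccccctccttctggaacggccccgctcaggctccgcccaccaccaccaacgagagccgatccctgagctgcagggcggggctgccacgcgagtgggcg
Sertad3, chr7:27172943-27173192, plus strand: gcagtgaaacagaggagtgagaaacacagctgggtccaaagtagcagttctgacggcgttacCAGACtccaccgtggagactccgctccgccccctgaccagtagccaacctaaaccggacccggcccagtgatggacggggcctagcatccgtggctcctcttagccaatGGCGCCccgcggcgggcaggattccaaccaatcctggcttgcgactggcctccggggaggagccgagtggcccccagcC
Cdkn1a, chr17:29312493-29312742, plus strand: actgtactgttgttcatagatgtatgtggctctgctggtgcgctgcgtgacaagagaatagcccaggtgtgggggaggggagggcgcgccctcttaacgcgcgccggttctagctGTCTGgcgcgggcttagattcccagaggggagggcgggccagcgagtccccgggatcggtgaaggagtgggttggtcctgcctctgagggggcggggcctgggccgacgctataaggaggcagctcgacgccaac
Cdkn1b, chr6:134897114-134897363, plus strand: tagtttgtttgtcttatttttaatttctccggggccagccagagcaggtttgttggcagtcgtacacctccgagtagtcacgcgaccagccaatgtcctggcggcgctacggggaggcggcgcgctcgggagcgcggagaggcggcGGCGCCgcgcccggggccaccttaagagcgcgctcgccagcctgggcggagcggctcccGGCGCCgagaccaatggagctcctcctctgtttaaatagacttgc

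Motifs were counted on both strands over 300 bases, from 250 upstream to 50 downstream of each start, and the first transcribed base is position 0. The Sertad1 window held no GGCGCC and a single SMAD box, on the minus strand at position 20, just downstream of the sequence shown. The Sertad3 window held GGCGCC at position -79 and CAGAC at positions -188 and -1, where the last copy runs across the start. Cdkn1b had GGCGCC at -104 and -45, Cdkn1a had GTCTG at -135, and Sertad4 had GGCGCC at 9 and GTCTG at -141. GGCGCC was found in 4 of the 10 windows against 21.5% of 10643 promoters, and CAGAC in 4 of 10 against 46.8%.

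Of general promoter motifs, the GC box GGGCGG was in 9 of the 10 windows (65.5% of promoters) and CCAAT in 4 (39.3%). Sertad1 had 3 GC boxes, at -66, -26 and -5. The E2F motif TTTNGCGC (2.67% of promoters), the cyclic AMP response element TGACGTCA (3.61%) and the AP-1 motif TGANTCA (4.47%) had no match in any of the 10 windows. The E-box CAGCTG, a sequence that myogenic factors can bind, was in the Sertad3 window alone (14.7% of promoters). TATAAA was in the Cdkn1c window alone (7.48%), at position 22, downstream of the start. These are matches of letters, and binding was not measured here. G and C made up 58.4% of the Sertad1 sequence, 44.0% of that of Cdkn2c and 77.6% of that of Cdkn2a, with a median of 59.6% over the promoters compared.

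Sertad2 and Sertad4 did not follow Sertad1. Sertad2, which encodes another E2F coactivator of the family, had 14.3 and 12 TPM with BMP6 and 15.4 and 16.0 TPM in controls. Both BMP6 libraries lay below both controls, by little in the replicate 1 pair (log2 difference -0.10) and by more in the replicate 2 pair (-0.39). The mean ratio was 0.835 (log2 difference -0.25, SE 0.13).

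Sertad2 reads came mainly from ENSMUST00000109586, which took 86.3% to 91.1% of its TPM in every library. The first exon of that transcript (295 bases) had a scaled depth of 0.967 and 0.743 with BMP6 and 1.02 and 1.05 in controls. The order of the groups was thus the same at its start as over the whole gene.

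Sertad4, the least studied member, had 8.34 TPM in BMP6 replicate 1 and 36.3 TPM in BMP6 replicate 2, against 13.7 TPM in control replicate 1 and 30.7 TPM in control replicate 2. Its differences within pairs had opposite signs (-0.65 and 0.23), and the gene separated the replicate numbers and not the treatments. The log2 difference was -0.21 over all libraries, 0.79 without BMP6 replicate 1 and 0.35 without control replicate 2. Both replicate 2 libraries exceeded both replicate 1 libraries, by 1.55 on the log2 scale on average, a larger replicate difference than in 99.8% of tested entries. Scaled depth over the last exon showed the same split, with 0.546 and 2.24 after BMP6 and 0.866 and 1.92 in controls. The summed TPM of the 5 fibroblast markers ran the other way between replicates, with 166 and 105 after BMP6 and 174 and 125 in controls. Of these markers, Col3a1 had 69.4 to 109 TPM, Col1a1 34.3 to 62.9 TPM and Dcn 0.955 to 1.92 TPM. Lum and Pdgfra were under 1 TPM in every library. The part of fibroblasts in the Sertad4 values was not tested.

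Cdca4, which encodes another SERTA-domain protein, had 69.3 and 62.1 TPM with BMP6 and 64.7 and 68.7 TPM in controls (log2 difference -0.02, limma adjusted p = 1.00). Its groups overlapped. Counted over the 4 Sertad genes, groups did not overlap in 3, namely Sertad1, Sertad2 and Sertad3, where 28.1% of named tested entries had groups that did not overlap. The summed level of all 4 was 137 and 162 TPM with BMP6 and 85.9 and 112 TPM in controls.

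The Cip/Kip inhibitors were at similar levels in both groups. Cdkn1c, an imprinted gene encoding p57, had 495 and 533 TPM with BMP6 and 506 and 523 TPM in controls. The means of both groups were 514 TPM, with an SD of 27.0 TPM over the BMP6 libraries and 12 TPM over the controls, and the pairs differed by -0.03 and 0.03 on the log2 scale. Cdkn1b, which encodes p27, had 10.4 and 7.42 TPM with BMP6 and 8.80 and 6.58 TPM in controls. Replicate 1 was above replicate 2 in both groups, and the BMP6 library exceeded its control in each pair, by 0.22 and 0.15 on the log2 scale. The groups overlapped nonetheless (log2 difference 0.19, SE 0.21, and -0.03 without BMP6 replicate 1).

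Lockd, a noncoding entry 3.6 kb from Cdkn1b on its strand, had 10.8 and 9.68 TPM with BMP6 and 9.27 and 8.45 TPM in controls (log2 difference 0.19, limma adjusted p = 1.00). Its BMP6 libraries lay above both controls.

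**Figure D3:**
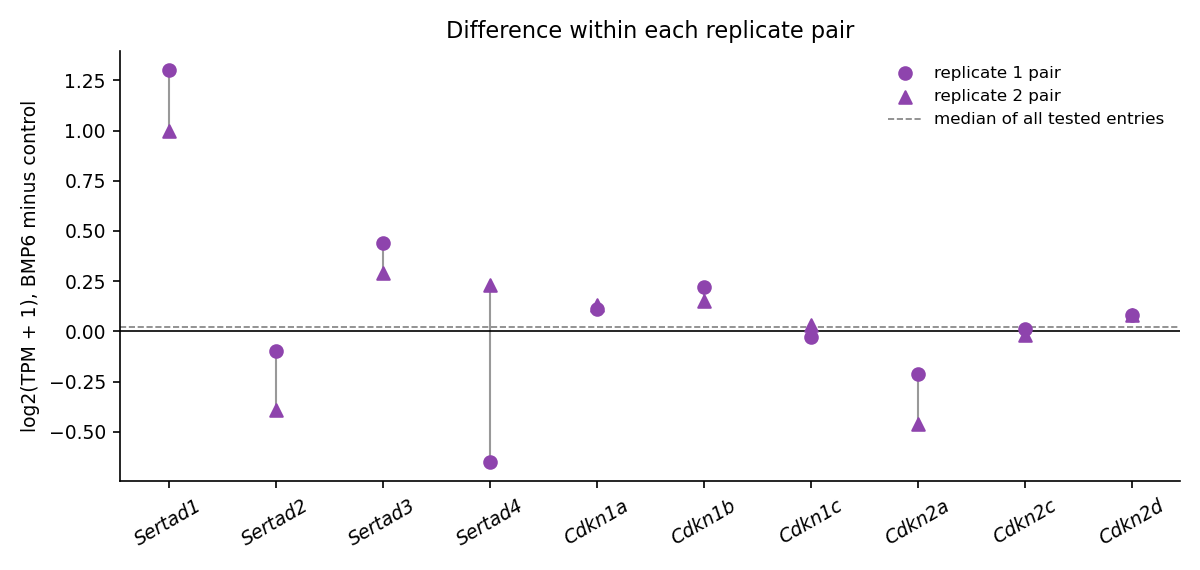
Difference of BMP6 minus control on the log2(TPM + 1) scale within the replicate 1 pair (circles) and the replicate 2 pair (triangles) for the 10 genes. The dashed line is the median of all tested entries, 0.02. Sertad1 is at 1.30 and 1.00, and the points of Cdkn1a, Cdkn1c, Cdkn2c and Cdkn2d lie between -0.03 and 0.13.

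Cdkn1a, the p53 target that encodes p21, had 1468 and 1741 TPM with BMP6 and 1357 and 1586 TPM in controls. The groups overlapped, with each BMP6 library a little above its own control (log2 differences 0.11 and 0.13). That small difference was in TPM and not in reads. Rebuilt reads were 181638 and 205875 with BMP6 and 187438 and 211829 in controls, a log2 difference of -0.03 once scaled to library size.

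The transcripts listed for Cdkn1a divided the gene differently in the groups. ENSMUST00000023829, which starts at chr17:29312743, had 1149.6 and 1419 TPM with BMP6 and 478 and 538 TPM in controls. ENSMUST00000122348, which starts within the first intron at chr17:29316874, had 194 and 207 TPM with BMP6 and 820.5 and 973 TPM in controls. As a share of the gene, the first of these had 78.3% and 81.5% after BMP6 and 35.2% and 33.9% in controls. The second had 13.2% and 11.9% after BMP6 and 60.4% and 61.3% in controls.

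Depth at both ends of the gene did not separate the groups in that way. The first exon of ENSMUST00000023829 (93 bases) had a scaled depth of 51.8 and 60.4 with BMP6 and 50.8 and 56.3 in controls, a near equal level at which the groups overlapped. The last exon, summed over the 4 listed transcripts, had 58.2 and 68.5 with BMP6 and 60.8 and 71.4 in controls. On the second exon of ENSMUST00000023829, by contrast, the unscaled depth assigned to this transcript was 14829 and 17296 with BMP6 and 5802 and 6221 in controls. The first exon of ENSMUST00000122348 (938 bases, of which 497 are in no other listed transcript) had a scaled depth of 13.7 and 14.2 with BMP6 and 56.0 and 64.9 in controls, a difference in the same direction as its TPM. The files give 1 depth for that whole exon, and the depth over the bases particular to it was not worked out apart. The last exon of ENSMUST00000122348, with 0 bases in no other listed transcript, had a scaled depth of 9.16 and 9.67 with BMP6. In controls it had 40.5 and 48.2. The difference was thus also present where all bases are shared and StringTie assigned the depth to a transcript. Part of ENSMUST00000122348 matched other transcripts at 95% identity or more, among them those of Mrpl30 and Rbm4b. Reads over that part are therefore uncertain. The noncoding genes Dino and Gm64878 overlap Cdkn1a on the opposite strand, over 1046 and 7562 bases. Which exons these overlaps cover was not worked out. In the unstranded libraries, reads in any part of Cdkn1a may thus be uncertain, the first exon of ENSMUST00000023829 included.

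**Figure D4:**
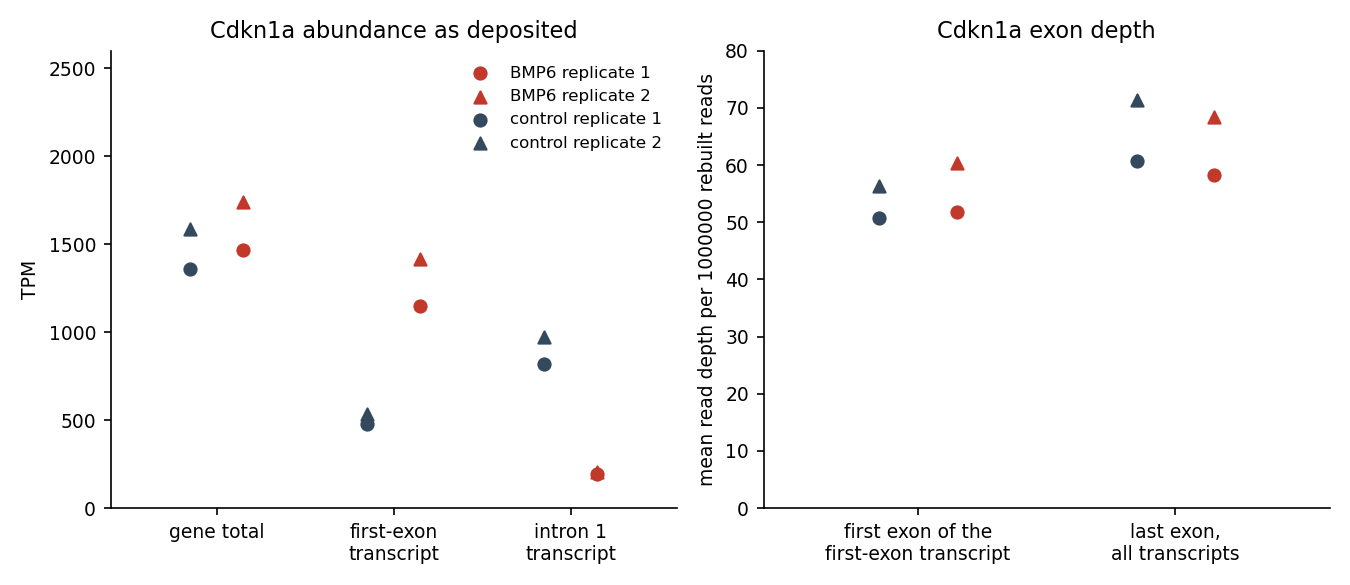
Left, TPM of Cdkn1a as a whole, of ENSMUST00000023829 (first-exon transcript) and of ENSMUST00000122348 (intron 1 transcript) in each library. Right, mean read depth per 1000000 rebuilt reads over the first exon of ENSMUST00000023829 and over the last exon summed over all listed transcripts. The TPM of both transcripts separates the groups, and the depths of these exons overlap between groups.

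The INK4 genes were also close to their controls, apart from Cdkn2a at the limit of detection. Cdkn2d, which encodes p19INK4D, had 138 and 124 TPM with BMP6 and 131 and 117 TPM in controls. Its pairs differed by 0.08 and 0.08 on the log2 scale, and the groups overlapped. Cdkn2c, which encodes p18INK4C, had 48.2 and 42.9 TPM with BMP6 and 47.7 and 43.7 TPM in controls. Replicate 1 exceeded replicate 2 in both groups, and the pairs differed by 0.01 and -0.02.

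Among the transcripts of Cdkn2d, ENSMUST00000086374 had 9.58 and 12.4 TPM with BMP6 and 30.6 and 24.1 TPM in controls. Its own exon of 52 bases, absent from the other transcript, had a scaled depth of 0.192 and 0.103 with BMP6 and 0.167 and 0.189 in controls, with overlapping groups. Control replicate 1 stood apart in Cdkn1c, where ENSMUST00000167912 took 54.4% of the gene and between 31.7% and 34.4% in the other 3 libraries. The totals of both genes moved far less than these shares. In Cdkn2c, by comparison, ENSMUST00000097921 took 75.2% to 80.7% of the gene in every library.

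Cdkn2a, whose alternative first exons give the p16INK4A and ARF proteins, had 0.243 and 0.250 TPM with BMP6 and 0.437 and 0.725 TPM in controls. These values rest on 14 and 13 rebuilt reads with BMP6 and 25 and 40 in controls. The groups did not overlap, but the gene was under the level of 1 mean TPM required for testing. Unscaled depth over the first exon of ENSMUST00000107131, which starts the ARF transcript, was 0.662 and 2.24 with BMP6 and 4.72 and 7.10 in controls. The first exon of ENSMUST00000060501, which starts the p16INK4A transcript, had an unscaled depth of 0.435 in control replicate 2 and of 0 in the other 3 libraries.

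Cdkn2b, the INK4 gene 11.6 kb from Cdkn2a on the same strand, was expressed far above it. It had 34.1 and 35.5 TPM with BMP6 and 40.6 and 42.5 TPM in controls. Both BMP6 libraries lay below both controls, by 0.24 and 0.25 within the pairs (log2 difference -0.25, SE 0.10), and the difference did not pass (limma adjusted p = 1.00, and 0.226 with the replicate block). Cdkn3, which carries the inhibitor name but encodes a phosphatase that acts on CDK2, had 74.5 and 69.0 TPM with BMP6 and 71.7 and 62.5 TPM in controls, with overlapping groups (limma adjusted p = 1.00).

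Across the 10 genes, the groups did not overlap in 4 (Sertad1, Sertad2, Sertad3 and Cdkn2a), to be read against the same 28.1%. Levels were higher in both pairs for 5 genes, lower in both for 2 and of opposite sign for 3, and over the named tested entries 36.7% were higher in both pairs and 24.7% lower in both. The 6 inhibitor genes summed to 2160.2 and 2449 TPM with BMP6 and 2051 and 2277 TPM in controls. The median log2 difference was 0.08 over the 9 genes tested and 0.02 over all tested entries.

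Among the entries whose pattern over the 4 libraries was most like that of Sertad1 were Gse1, Kcnf1, Wnt9a, Amotl2, Ier3 and Cldn4. Likeness was the distance between log2(TPM + 1) values centred on their own mean, and it ran from 0.13 for Gse1 to 0.27 for Cldn4. Kcnf1, a potassium channel gene, had 6.07 and 7.48 TPM with BMP6 and 1.73 and 2.94 TPM in controls. Wnt9a, which encodes a WNT ligand, had 13.4 and 15.3 TPM with BMP6 and 4.69 and 5.59 TPM in controls. Amotl2, an angiomotin family gene, had 21.7 and 24.2 TPM with BMP6 and 9.83 and 13.5 TPM in controls. Like Sertad1, each of the 3 had its lowest level in control replicate 1. They were picked by likeness over these same libraries, so nothing is read from this shared order. Gse1 had under 3 TPM in every library, well below Sertad1. On this scale the changes of low genes are understated, so a small distance does not mean an equal fold change. Mean ratios were 5.01 for Gse1, 2.9 for Kcnf1, 2.79 for Wnt9a, 1.97 for Amotl2, 2.08 for Ier3 and 2.94 for Cldn4. That of Sertad1 was 2.24. The ratios of Gse1 and Cldn4 rest on low control levels, 0.323 and 0.714 TPM for Gse1 and 0.812 and 1.78 TPM for Cldn4.

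The kinases, cyclins and targets around these genes moved little. Lists of cyclins and CDKs, of the Rb, E2F and replication genes, of p53 targets and of factors that degrade CDK inhibitors had 21, 30, 23 and 20 tested members. In limma, 0 members of any of the 4 lists passed an adjusted p of 0.1, which 0.263% of named tested entries passed with higher and 0.00939% with lower levels after BMP6. At an unadjusted p under 0.05 there were 2, 1, 3 and 0 members. The share of all tested entries at that level was not computed, so nothing is read from these counts. The median log2 differences were 0.07, 0.08, 0.07 and 0.05.

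With the replicate number as a block in limma, 1.32% of named tested entries were higher and 0.319% lower at that adjusted p. Of the cyclin and CDK list, Ccne2 then passed, the cyclin E2 gene whose product activates CDK2, with 29.0 and 34.1 TPM after BMP6 and 23.1 and 25.4 TPM in controls (log2 difference 0.36, limma adjusted p = 0.0988 with the block). The related cyclin E1 gene, Ccne1, had 54.9 and 50.8 TPM with BMP6 and 65.5 and 61.7 TPM in controls, and did not pass (limma adjusted p = 0.163 with the block). It was named after its values were seen. The most abundant members were Ccnd3, with 527 and 403 TPM after BMP6 and 493 and 383 TPM in controls, Cdk4, the kinase that SERTAD1 and INK4 proteins bind, with 378 and 343 against 385 and 344 TPM, and Ccnb1, with 279 and 277 against 266 and 262 TPM.

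In the Rb, E2F and replication list, 1 of 30 members passed with the block. Rrm2, which encodes a subunit of the enzyme that makes deoxyribonucleotides, had 916 and 1012 TPM with BMP6 and 741 and 785 TPM in controls (log2 difference 0.34, limma adjusted p = 0.0064 with the block). Pcna, the replication clamp gene, had 261 and 222 against 246 and 244 TPM, and E2f4 had 131 and 145 against 132 and 165 TPM.

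Of the p53 target list, 2 of 23 tested members passed with the block. Gadd45a, a growth arrest and stress gene, had 146 and 141 TPM with BMP6 and 106 and 113 TPM in controls (log2 difference 0.39, limma adjusted p = 0.0284 with the block). Pmaip1, which encodes the cell death protein NOXA, had 85.5 and 102 TPM with BMP6 and 71.2 and 73.4 TPM in controls (log2 difference 0.36, limma adjusted p = 0.0683 with the block). The most abundant of the list were Bax (306 and 328 TPM with BMP6, 294 and 311 TPM in controls), Trp53 itself (196 and 171, and 201 and 189 TPM) and Phlda3 (193 and 176, and 176 and 168 TPM).

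In the list of factors that degrade CDK inhibitors, 0 of 20 members passed with or without the block. Its most abundant members, Skp1, Cks1b and Rbx1, belong to the ubiquitin ligase that marks p27 for destruction. Skp1 had 416 and 388 TPM with BMP6 and 406 and 376 TPM in controls, Cks1b 383 and 391 against 362 and 387 TPM, and Rbx1 349 and 372 against 333 and 364 TPM. Akt1, a kinase that phosphorylates p21 and p27, had 84.8 TPM in BMP6 replicate 1 and between 212 and 254 TPM in the other 3 libraries. Without BMP6 replicate 2 it passed as lower (log2 difference -1.44, limma adjusted p = 0.00718), so that this call rested on 1 library.

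**Figure D5:**
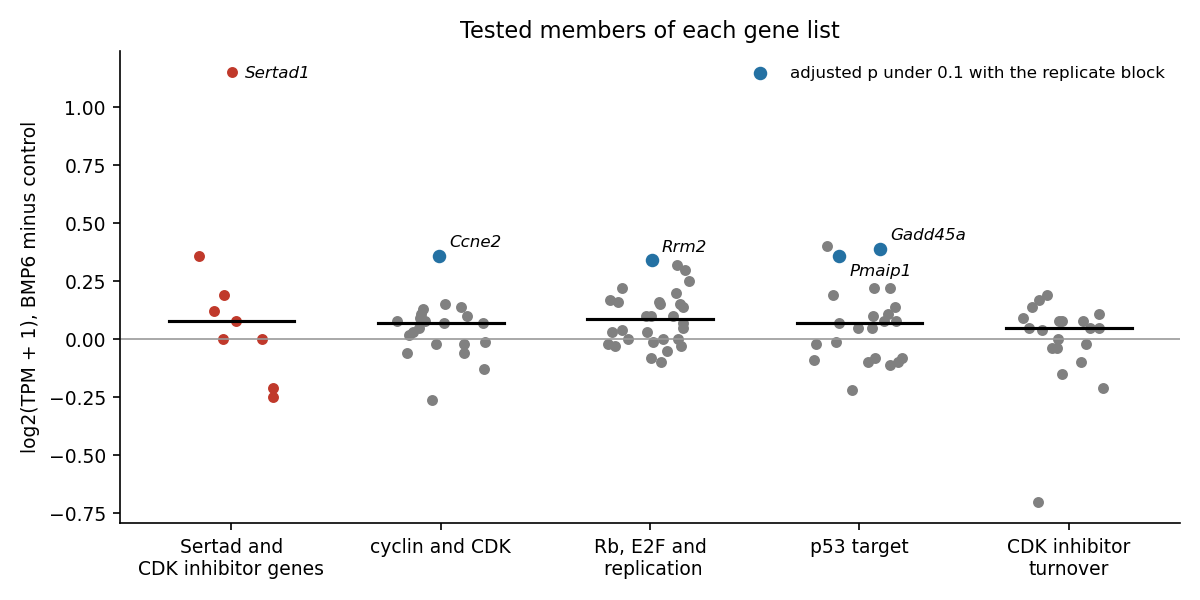
Difference of BMP6 minus control on the log2(TPM + 1) scale for the 9 tested Sertad and CDK inhibitor genes (red, no test shown) and the tested members of the 4 lists (grey, with a bar at the median of each group). Blue points passed an adjusted p of 0.1 in limma with the replicate block. Sertad1, whose rise was part of how the set was chosen, is at 1.15. The blue points are Ccne2, Rrm2, Gadd45a and Pmaip1, between 0.34 and 0.39.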

How the data were processed

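RNA abundance was measured in 2 BMP6 and 2 control libraries of polyA RNA, made with an unstranded Smart-seq2 and Nextera XT protocol without molecular identifiers. Groups and replicate numbers came from the sample labels. The authors aligned paired reads of 100 bases with STAR 2.7.11a to GRCm39 (GENCODE M32), sorted them with SAMtools 1.17, merged StringTie assemblies and quantified each library with StringTie 2.2.1, versions as in the submitters' processing notes. The files' headers show that the correction for reads aligned to several places was switched off. TPM of each gene were deposited as a table of 55267 entries, and a second deposited table gives FPKM. The deposited coverage signal is the mean read depth over each transcript and exon, not scaled to library size. The depth printed for an exon is the part that StringTie assigned to the named transcript.

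Reads per transcript were rebuilt by multiplying coverage by length and dividing by 100 bases. Entries with a mean of at least 1 TPM (13128) were tested on log2(TPM + 1) with limma 3.58.1 in R 4.3.3, with a mean-variance trend, two-sided, and Benjamini-Hochberg adjustment over all of them. Fold changes on this scale understate the change of low genes. Names that mark predicted genes, microRNAs, antisense transcripts or pseudogenes stayed in the fit but were not called, which left 10645. With 2 against 2 libraries, an exact permutation test of single values cannot go below p = 0.333, so none was run. The labels' batch field gives the same replicate numbers in both groups, and deviations from the group means of same-numbered libraries correlated at 0.563 over tested entries. The study's methods state default settings for differential expression and a paired design for heatmaps, so the block was an alternative.

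Named from the lists were members past the adjusted p with or without the block and the 3 most abundant of each list. Further named were 3 relatives, entries among the 8 most like Sertad1 (the others are not reported here), expressed neighbours within 25 kb that bear on a result, and check genes. The 10 genes, the lists and the motifs were chosen with earlier results of these data known. Promoters were read from the reference genome of the same build at transcript starts of the authors' files, and matches to other transcripts were searched with blastn 2.17.0 in GENCODE M39. Alternatives were the pseudocount, the filter, the trend, the scale, the block, the threshold and leaving out each library. Intervals of counting error were not computed, since amplified reads are not independent molecules.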

Additional observations from a re-analysis of the deposited data

How the results depend on the processing

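The log2 differences of Sertad1, Sertad2, Sertad3 and Cdkn2a kept their sign in every alternative that gave a value, Cdkn2d ran from 0.00 to 0.16, and Cdkn1c and Cdkn2c stayed between -0.09 and 0.08. For Cdkn2a, whose low level kept it out of every fit with a filter, 6 of the alternatives gave no value. Its difference, taken directly from TPM or FPKM except where the filter was removed, was -0.34 and became -0.94 with a pseudocount of 0.1. Sertad4 ran from -1.21 to 0.79 and turned in 2 of 14 alternatives. Cdkn1a ran from -0.03 to 0.25 and turned in 2, and Cdkn1b ran from -0.03 to 0.40 and turned in 1. As a description, Sertad1 was not among the called entries in 5 of 14 alternative fits (with the filter on low values removed or raised to 5 TPM, without a trend, with voom without the block and without control replicate 1), nor in the fit reported when the adjusted p threshold was 0.05. Genes called higher, 24 in all, numbered 15 with a pseudocount of 5, 1 with no filter on low values, 15 with a filter at 5 TPM, 12 without a trend, 11 at an adjusted p threshold of 0.05, and 17 to 30 with a library left out. Genes called lower, 0 with all libraries, numbered 1 to 7 with a library left out, where a lone library is assumed to vary as the others do. The cause of these shifts was not tested.

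The replicate block, which follows the pairing in the labels, gave 36 genes called higher and 1 called lower, and voom with the replicate block gave 56 and 7. In both fits with the block, 1 member of the cyclin and CDK list, 1 of the Rb, E2F and replication list and 2 of the p53 target list passed as higher, against 0 without it. Members of the CDK inhibitor turnover list past the adjusted p with lower levels numbered 0 to 1 with a library left out. Depth was lowest for Cdkn2a, with 13 to 40 rebuilt reads per library.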
